A study of Pomacea canaliculata with 34 samples.

Results

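In embryos of the apple snail Pomacea canaliculata, a group of 131 genes, of 21131 in the table, had a dip. They were high at Stage 2, the first stage sampled, low at some later stage and high again in the hatchling. The members were chosen by measured levels, as each gene's reads scaled to the total reads in genes of its library (CPM, per 1000000 reads) and averaged over the libraries of a stage. A member had 5 CPM or more at both Stage 2 and the hatchling, a hatchling mean over 50% of the Stage 2 mean, and a lowest mean among Stage 3 to Stage 10 of at most 50% of both ends. No stage could reach 2 times both ends, but a stage in between could exceed both, as it did on the means in 30 members. Both ends were at 5 CPM or more in 9197 genes, the hatchling condition left 7113 of these, the dip left 134, and the last condition removed 3. The course over the stages therefore defines the genes, and it is described here without a test.

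Pomacea canaliculata is a freshwater snail with camera-type eyes, which the series title introduces as a system for eye regeneration. Polyadenylated RNA of whole embryos, freed from the egg, was sequenced at 9 stages from Stage 2 on, and that of hatchlings as the last point. The stages up to Stage 7 have 3 libraries, and the later stages and the hatchling have 4, which makes 34. The labels give no treatment and no strain. They also do not state whether replicates are separate clutches or shared pools of embryos, and the spread between replicates may thus be technical only.

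In animal embryos generally, the first messenger RNAs are laid down by the mother in the egg and are cleared while the embryo starts to transcribe its own genome. Organs that form later transcribe many of the same genes again. Messages stored with a short poly(A) tail are taken up less well by selection for polyadenylated RNA. In RNA of whole animals, fewer cells of a type and less RNA per cell cannot be told apart. The genes carry only LOC identifiers in the table and in the reference, with no product names, so no function is given.

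Library totals over genes were between 13392123 and 95942469 reads, and the libraries with the most reads were those of Stage 10 and the hatchling, with up to 88674538 and 95942469. The lowest stage of a member held a median of 281 reads over its libraries, with a range from 8 to 63914. All 131 members passed the filter on low counts used for the tests across all genes, as did 17441 of all 21131. The end levels asked for by the rule made this nearly certain, so it says nothing about reads at the low stage.

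Most dips were moderate. At the lowest stage the members stood at a median of 37.7% of the lower end mean (quartiles 29.8% and 45.4%), with 25 members at or under 25% and 3 at or under 10%. The lower end mean had a median of 11.9 CPM and a range from 5.07 to 1593 CPM, and it was under 10 CPM in 53 members and at 100 CPM or more in 8. The lowest mean fell at Stage 3 in 18 members, at Stage 4 in 40, at Stage 5 in 11, at Stage 6 in 16, at Stage 7 in 21, at Stage 8 in 17, at Stage 9 in 5 and at Stage 10 in 3. Stages 3 to 5 thus held the low of 69 members or 52.7%. They held that of 56.4% of the 7113 genes that met the conditions on the ends, which set no upper limit on the hatchling. Stages 6 and 7 held the low of 37 members or 28.2%, against 8.96% of those genes. Stages 8 to 10 held the low of 25 members or 19.1%, against 34.6%. Within the early stages, Stage 3 held the low of 13.7% of the members and 44.3% of the 7113 genes, and Stage 4 that of 30.5% and 9.63%. These shares are a description, since the rule used the lowest mean.

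**Figure D1:**
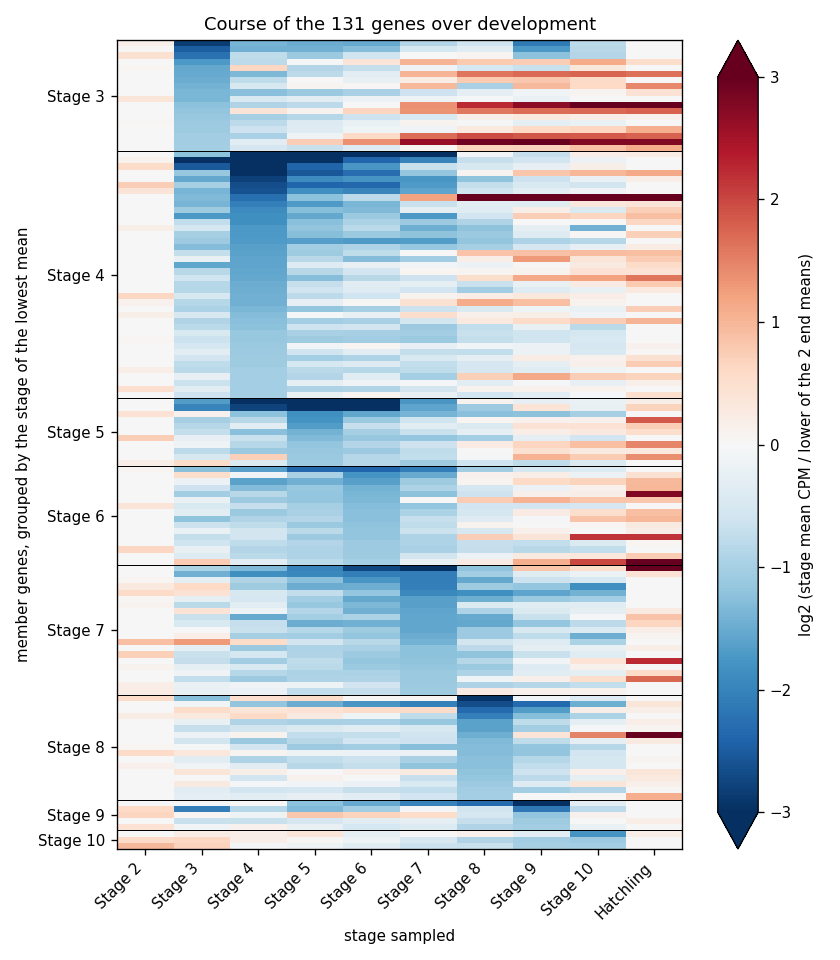
Stage means of the 131 genes (rows) over the 10 stages sampled (columns), coloured by the log2 ratio of the stage mean CPM to the lower of the Stage 2 and hatchling means. Rows are grouped by the stage of the lowest mean. The blue band moves to the right from the 18 genes lowest at Stage 3 to the 3 genes lowest at Stage 10, and colours beyond 3 in either direction are capped.

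The members took different courses back. For the 69 genes lowest at Stages 3 to 5, the median level relative to the lower end mean was 49.9% at Stage 3, 42.2% at Stage 4, 48.9% at Stage 5, 64.9% at Stage 7, 82.2% at Stage 8 and 99.7% at Stage 9. For the 37 genes lowest at Stages 6 and 7 it was 81.4% at Stage 3, 43.7% at Stage 6, 43.5% at Stage 7 and 78.3% at Stage 9. Those 25 genes lowest at Stages 8 to 10 stayed at 95.8% at Stage 3 and 67.1% at Stage 7, then stood at 42.3% at Stage 8 and 80.8% at Stage 10. On these medians the rise after early lows took several stages, and the fall before late lows was gradual. The order of fall and rise follows from the sorting by lowest stage. The medians also hide sharper courses, such as that of LOC112573553, with means of 296 CPM at Stage 7 and 39.7 CPM at Stage 8. For comparison, the same median over the 7113 genes with similar ends was 123% at Stage 3, 150% at Stage 6 and 137% at Stage 10, and the members' medians were below it at each of these stages.

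Members regained their level at different stages. Counting from the lowest stage, the lower end mean was first reached again at Stage 4 by 2 members, at Stage 5 by 2, at Stage 6 by 6, at Stage 7 by 10, at Stage 8 by 18, at Stage 9 by 17, at Stage 10 by 17 and in the hatchling by 59. Of the genes lowest at Stages 8 to 10, 19 of 25 were back only in the hatchling, against 20 of 69 of those lowest at Stages 3 to 5. By the rule every member is back by the hatchling, so the hatchling count is of genes not back by Stage 10, and later lows had fewer stages left in which to return. The time at a low level also varied, with 48 members at or under 50% of the lower end mean at a single stage, 31 at 2 stages and 3 at 7 of the 8 inner stages. In 24 members the low was interrupted, in 21 of them by 1 stage or run of stages above 50% and in 3 by 2 such intervals.

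Libraries were compared one by one, since the choice of members used only means. In 112 of the 131 members every library of the lowest stage was below every Stage 2 and every hatchling library. Among the 7113 genes that met the conditions on the ends, 898 or 12.6% had this property, and the difference follows from the choice of members. In the other 19 members at least 1 library overlapped. The biological coefficient of variation estimated by edgeR had a median of 0.2 over the members (quartiles 0.143 and 0.331), against 0.137 over the 17441 tested genes (quartiles 0.0822 and 0.27), a description with no test.

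Membership rested on single libraries in many genes. With each of the 34 libraries left out in turn, 75 members met the rule every time and 56 failed at least once. The most members, 19, were lost without Stage 2 replicate 3, followed by 17 without Stage 2 replicate 2, 15 without Stage 2 replicate 1 and 12 without hatchling replicate 3. The ends of the series thus decided more memberships than the inner stages did. This follows in part from the rule, which uses both end means for every gene but an inner stage mainly where it is lowest. Of the 75, 67 also met the rule with TMM and with RLE scaling of the library totals. These 67 genes were lowest at Stages 3 to 5 in 37 cases, at Stages 6 and 7 in 20 and at Stages 8 to 10 in 10, and 57 of them were low at 2 stages or more.

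For each stage, the deepest dip whose libraries did not overlap with either end is described, along with some genes chosen later. LOC112577290 had 0.281, 0.963 and 0.355 CPM at Stage 5, its lowest stage, against 9.59, 11.1 and 5.36 CPM at Stage 2 and 10, 8.52, 9.7 and 11 CPM in the hatchling. All Stage 5 libraries were far below both ends, and the gene was already back at 9.41 ± 1.2 CPM (SD, n = 4) at Stage 8. The Stage 5 mean of 0.533 CPM was 6.14% of the lower end mean, on 28 reads, and 3.67% without Stage 5 replicate 2.

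LOC112572798, named after its values were seen as 1 of the 3 members at or under 10%, followed a similar course. It had 0.813, 0.426 and 0.286 CPM at Stage 4, against 10.1, 6.27 and 7.14 CPM at Stage 2 and 7.88, 7.03, 8.67 and 5.74 CPM in the hatchling. The groups did not overlap, and the lowest mean was 6.93% of the lower end mean. The means were 0.815 ± 0.317 CPM at Stage 3 and 1.83 ± 0.495 CPM at Stage 7 (n = 3 each), then 4.51 ± 1.08 CPM at Stage 8 (n = 4). Its low thus spanned Stage 3 to Stage 7.

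LOC112574283, also chosen after its values were seen, had an early dip from a higher level. It had 3.01, 2.36 and 4.06 CPM at Stage 4, against 52.6, 44.7 and 23.7 CPM at Stage 2 and 20.8, 26.4, 32.3 and 31.3 CPM in the hatchling. The groups did not overlap, although the Stage 2 libraries were spread widely. Its mean was 5.2 ± 1.22 CPM at Stage 5, 8.27 ± 1.61 CPM at Stage 6 and 17.5 ± 1.4 CPM at Stage 7 (n = 3 each), then 31.2 ± 1.17 CPM at Stage 10 (n = 4). The stage means increased at each step after Stage 4 up to Stage 10, and the hatchling, at 27.7 ± 5.25 CPM (n = 4), overlapped Stage 10.

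At Stage 6 the deepest such dip was that of LOC112561193, with 0.738, 1.18 and 1 CPM, against 5.57, 4 and 6.56 CPM at Stage 2 and 5.18, 5.77, 4.33 and 5.06 CPM in the hatchling. The Stage 6 mean of 0.974 CPM was 19.2% of the lower end mean and rests on 64 reads. The gene was close to the limit of 5 CPM at both ends, and it failed the rule with TMM or RLE scaling and without Stage 2 replicate 3 or hatchling replicate 2.

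LOC112563022 was lowest at Stage 7, with 0.386, 0.956 and 0.679 CPM, against 4.79, 4.39 and 6.56 CPM at Stage 2 and 25.7, 50, 81 and 52.3 CPM in the hatchling. Its hatchling mean was 9.95 times its Stage 2 mean, so this gene did not come back to its first level but passed it. Most of that difference arose at the last step, since Stage 10 stood at 7.6 ± 2.22 CPM (n = 4). Without Stage 2 replicate 3 its Stage 2 mean was under 5 CPM and it failed the rule.

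LOC112576744 was lowest at Stage 10, with 1.41, 1.39, 1.87 and 1.49 CPM, against 8.69, 3.21 and 3.89 CPM at Stage 2 and 7.88, 4.37, 6.18 and 5.64 CPM in the hatchling. The Stage 10 libraries lay close together and below all others of the gene, which from Stage 3 to Stage 9 had means from 4.22 to 6.8 CPM. The low of this gene was thus confined to 1 stage on the means, and it failed the rule without Stage 2 replicate 1.

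**Figure D2:**
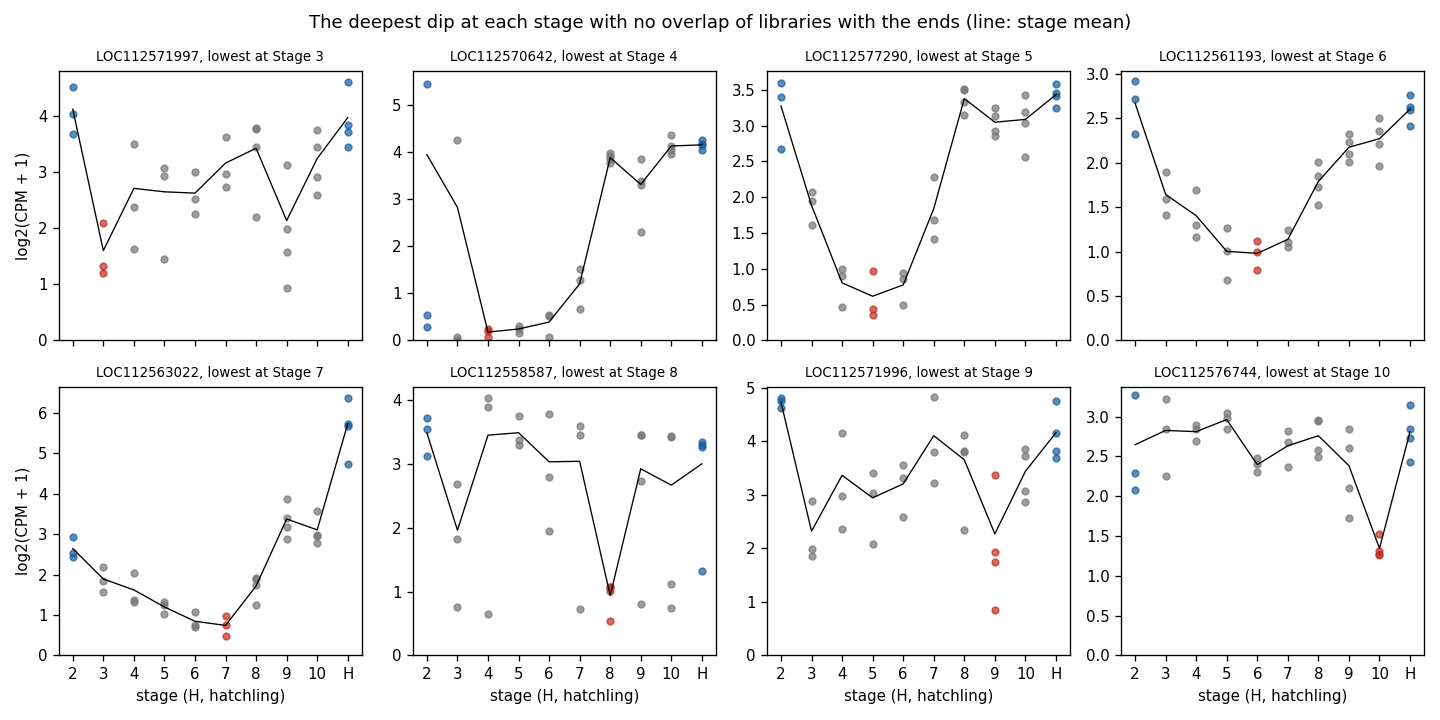
Levels of 8 genes, the deepest dip for each stage of the lowest mean among members whose lowest-stage libraries lie below all end libraries, as log2(CPM + 1) in each library, with a line through the log2 of the stage means plus 1. Red points are libraries of the lowest stage, blue points those of Stage 2 and the hatchling, and grey points the others. LOC112577290, LOC112561193 and LOC112563022 form a smooth trough, while LOC112570642 is high in 1 of 3 Stage 2 libraries and LOC112558587 is low in single libraries of several stages.

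The deepest dip of all rested on a single library. LOC112570642 had 0.143, 0.189 and 0.0571 CPM at Stage 4, or 8 reads in all, against 42.8, 0.444 and 0.21 CPM at Stage 2 and 15.7, 18.1, 16.8 and 17 CPM in the hatchling. Only Stage 2 replicate 1 was high, and the same replicate number was high at Stage 3, where the libraries stood at 18.3, 0 and 0.0467 CPM. The lowest mean was 0.897% of the lower end mean with all libraries. Without Stage 2 replicate 1 it was 39.8%, the Stage 2 mean was 0.327 CPM and the gene failed the rule. From Stage 8 on no library was under 3.95 CPM, with means of 13.8 ± 0.963 CPM at Stage 8, 9 ± 3.98 CPM at Stage 9, 16.6 ± 2.17 CPM at Stage 10 and 16.9 ± 0.958 CPM in the hatchling (n = 4 each).

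LOC112567528 and LOC112576495, chosen after their values were seen, also rested on single Stage 2 libraries for the depth of their dips. The Stage 2 libraries of LOC112567528 stood at 0.659, 13.4 and 5.25 CPM, its Stage 9 libraries at 0.477, 1.2, 0.587 and 0.268 CPM, and its hatchling mean was 6.33 CPM. Its lowest mean was just over 10% of the lower end mean, the deepest of the members lowest at Stage 9, with libraries that overlap Stage 2. It was 21.5% without Stage 2 replicate 2, where it failed the rule. The libraries of LOC112576495 held 5.35, 1.04 and 1.43 CPM at Stage 4, against 0.959, 10.5 and 26.5 CPM at Stage 2, and the groups overlap. Its lowest mean was 20.6% of the lower end mean, 45.7% without Stage 2 replicate 3 and 9.81% without Stage 4 replicate 1, and it met the rule in every leave-out. In the hatchling it stood at 252 ± 18.9 CPM (n = 4), 19.9 times its Stage 2 mean.

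Of the 4 members of the highest level, 3 had shallow dips. LOC112563838, the most abundant member by its lower end, had 603, 785 and 870 CPM at Stage 5, against 1626, 1922 and 1949 CPM at Stage 2 and 1113, 1544, 2125 and 1593 CPM in the hatchling. The Stage 5 mean was 47.2% of the lower end mean, and Stage 7, at 763 ± 48.2 CPM (n = 3), was as low within the spread. It failed the rule without hatchling replicate 3. LOC112575363 had 261, 309, 317 and 228 CPM at Stage 10, against 1210, 1064 and 1039 CPM at Stage 2 and 450, 514, 767 and 515 CPM in the hatchling. It declined on the means at each step from Stage 2 to Stage 10, regained 50.8% of its Stage 2 level, and failed the rule in 5 of the 34 leave-outs and with TMM or RLE scaling.

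LOC112553390 and LOC112557753 were the next in level. LOC112553390 had 57.6, 70.5 and 56.2 CPM at Stage 7, against 266, 284 and 224 CPM at Stage 2 and 270, 404, 356 and 368 CPM in the hatchling. No library of Stage 3 to Stage 7 exceeded 101 CPM and none of Stage 9 or later was under 177 CPM. Its lowest mean was 23.8% of the lower end mean, and it met the rule in every leave-out and under both other scalings. LOC112557753 had 115, 116 and 107 CPM at Stage 5, against 258, 217 and 275 CPM at Stage 2 and 284, 319, 310 and 310 CPM in the hatchling, a low of 45%. It was back at 247 ± 24.6 CPM (n = 4) at Stage 8, within the spread of its Stage 2 level of 250 ± 29.9 CPM (n = 3).

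LOC112573553, chosen after its values were seen, differed from the other abundant members by a sharp late low. It had 38.3, 36.4, 41.2 and 43 CPM at Stage 8, against 192, 204 and 201 CPM at Stage 2 and 86.2, 320, 242 and 248 CPM in the hatchling. Up to Stage 7 its libraries lay between 192 and 343 CPM, and at Stage 9 they lay between 55.1 and 75 CPM. The Stage 10 libraries held 330, 54.9, 194 and 337 CPM, so that replicate 2 was at the Stage 9 level and the others were not.

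The course most like the median of all members was that of LOC112553390, with a Pearson correlation of 0.981 over the 10 stage means of log2(CPM + 1). LOC112572034 followed with 0.977, LOC112561178 with 0.975 and LOC112565030 with 0.975. These values describe genes that were all chosen for such a course. LOC112572034 had 2.25, 1.56 and 1.09 CPM at Stage 4, against 14.2, 13.1 and 6.88 CPM at Stage 2 and 14, 10.5, 15.2 and 12.6 CPM in the hatchling. LOC112561178 had 4.16, 3.07 and 4.57 CPM at Stage 4, against 13.7, 12.8 and 12.3 CPM at Stage 2 and 20.9, 21.1, 25.1 and 18.2 CPM in the hatchling. LOC112565030 had 23.5, 22.4 and 20.4 CPM at Stage 6, against 63.6, 57.7 and 57 CPM at Stage 2 and 107, 121, 133 and 111 CPM in the hatchling. In none of these 3 genes did the lowest stage overlap an end.

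The level of the hatchling relative to Stage 2 varied widely. The hatchling mean was above the Stage 2 mean in 84 members and below it in 47, with a median ratio of 1.16 (quartiles 0.929 and 1.69) and a range from 0.508 to 30.6. It was 2 times the Stage 2 mean or more in 24 members and 5 times or more in 7, so that these genes dipped before a higher last level. LOC112555200, chosen after its values were seen, had 4.83 ± 0.968 CPM at Stage 3, its lowest stage, and 11.3 ± 0.831 CPM at Stage 2 (n = 3 each). It stood at 29.2 ± 5.35 CPM at Stage 7 (n = 3), 72.7 ± 7.5 CPM at Stage 9 and 95.4 ± 7.84 CPM in the hatchling (n = 4 each). At the other extreme of shape, LOC112559179 and LOC112562303, also chosen after their values were seen, had nearly equal ends in CPM on library totals. With TMM scaling edgeR called both lower in the hatchling than at Stage 2, by log2 fold changes of -0.43 and -0.48. LOC112559179 stood at 40.3 ± 6.73 CPM in the hatchling (n = 4) against 39.8 ± 3.68 CPM at Stage 2 (n = 3). LOC112562303 stood at 31.7 ± 7.36 CPM in the hatchling (n = 4) against 32.4 ± 4.88 CPM at Stage 2 (n = 3). LOC112559179 had been between 11.3 and 13.5 CPM in every library of Stage 4 to Stage 7.

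**Figure D3:**
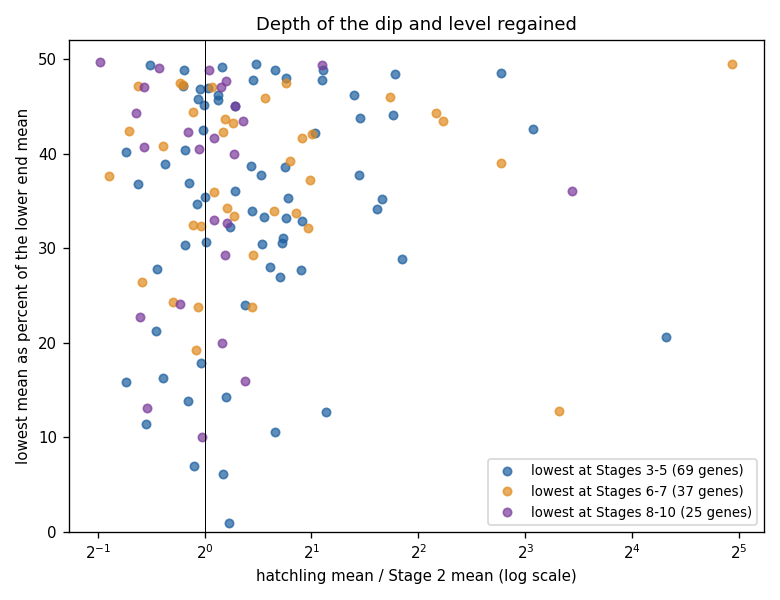
Each point is 1 of the 131 genes, with the ratio of the hatchling mean to the Stage 2 mean on a log2 axis and the lowest mean as a percentage of the lower end mean on the other. Colours give the stages of the lowest mean. Points right of the line at 1 are the 84 genes whose hatchling mean was above the Stage 2 mean, up to a ratio of 30.6, and 25 genes lie at or under 25% on the vertical axis.

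Members just inside the limit on the dip were LOC112575363, at 49.7% of the lower end mean, and LOC112560635, at 49.5%. LOC112560635 had 7.6, 4.69 and 3.76 CPM at Stage 6, against 15.5, 8.25 and 8.72 CPM at Stage 2 and 234, 338, 422 and 327 CPM in the hatchling, and held the highest ratio of hatchling to Stage 2. It failed the rule in 3 of the 34 leave-outs. Just outside the limit were LOC112556768, at 50.3% with its low at Stage 3, and LOC112563039, at 50.6% with its low at Stage 8. These genes on either side of the limit thus had nearly the same depth of dip.

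Tests across all genes give the scale of these changes, but they use the same means as the choice of members and nothing is read from the counts. With edgeR's quasi-likelihood test, in which a call is a Benjamini-Hochberg adjusted p under 0.05, 104 of 131 members were lower at Stage 6 than at Stage 2, where 26.3% of the 17441 tested genes were. The single member called higher was LOC112570444, where 37.3% of all genes were. In the hatchling 97 members were higher than at Stage 6, against 43.3% of all genes. None was called lower there, against 34.9% of all genes; by an unadjusted p under 0.05 it was also 0, and with DESeq2 0. At the first step, from Stage 2 to Stage 3, 68 members were lower at Stage 3, against 16.3% of all genes. At the last step 58 members were higher in the hatchling than at Stage 10, against 16.9% of all genes, and LOC112560629 and LOC112570948 were called lower, against 19.3%. The median log2 fold change of the members was -1.33 for Stage 6 against Stage 2, where that of all genes was 0.18, and 1.19 for the hatchling against Stage 6, where it was 0.17.

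The comparison of the ends depended on scaling. With TMM scaling 28 members were higher and 38 lower in the hatchling than at Stage 2, against 52% and 34.2% of all genes. With library totals, the scale on which the members were chosen, the counts were 45 and 10, and with RLE scaling 31 and 29. Over all genes the log2 fold change had a median of 0.56 under TMM, 1.01 under library totals and 0.64 under RLE, and over the members one of -0.24, 0.21 and -0.16 in the same order. The direction in which the members as a whole moved between the ends therefore flipped with the scaling, while under each of these it was below the median of all genes.

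Position along the genome was not used by the rule. All 21131 genes matched the reference table of assembly ASM307304v1, which was used only for the order of genes. The build used for counting is not given in the sources used here. Members occurred on all 14 linkage groups, with 3 to 14 on each. Of the 261 immediate neighbours of members, counted once per side, 8 or 3.07% were members themselves, where members made up 0.62% of all genes. The 0.62% also counts genes that could not be members, since only 7113 met the conditions on the ends. Those 8 neighbours came from 4 adjacent pairs involving 7 genes, and 2 of the pairs lay in a single run.

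That run, chosen after its values were seen, held 8 neighbouring genes, of which LOC112571993, LOC112571996, LOC112571995 and LOC112571997 were members. LOC112571997, the deepest dip of Stage 3, had 1.52, 1.31 and 3.27 CPM at Stage 3, against 21.9, 11.9 and 15.5 CPM at Stage 2 and 12.1, 9.9, 23.5 and 13.4 CPM in the hatchling. It then had a second low at Stage 9, with 0.915, 2, 7.74 and 2.94 CPM, against 12.6, 12.9, 3.6 and 9.94 CPM at Stage 8. The Stage 3 libraries lay below both ends, and those of Stage 9 and Stage 8 overlapped. LOC112571995 was the most abundant of the run, with 5.54, 4.79 and 6.54 CPM at Stage 3, against 47.5, 23 and 38.6 CPM at Stage 2 and 21.4, 19.3, 41 and 24.4 CPM in the hatchling.

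The other members of the run had a similar course. LOC112571996, the deepest dip of Stage 9 without overlap of libraries, had 0.796, 2.81, 9.36 and 2.36 CPM at Stage 9, against 26.2, 23.7 and 27.1 CPM at Stage 2 and 13.1, 11.9, 25.9 and 16.8 CPM in the hatchling. Its Stage 3 mean of 4 ± 2.08 CPM (n = 3) was as low within the spread. Its lowest mean was 22.7% of the lower end mean, and 11.7% without Stage 9 replicate 3, and it failed the rule with TMM scaling. LOC112571993 had 0.97, 1.4 and 3.78 CPM at Stage 3, against 12, 9.83 and 13.3 CPM at Stage 2 and 9.4, 8.25, 16.5 and 11.6 CPM in the hatchling, a low of 17.9% that was 10.4% without Stage 3 replicate 3.

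The 4 genes of the run that were not members were read less, but their means also fell at Stage 3 and at Stage 9. The Stage 3 mean as a percentage of the Stage 2 mean was between 12.4% and 17.5% for the 4 members, and it was 16.8% for LOC112571994, 13.8% for LOC112571991, 13.7% for LOC112571992 and 7.3% for LOC112571990. The Stage 9 mean was between 33% and 40% of the Stage 8 mean for the members, and between 33.1% and 51.5% for the others. LOC112571990 and LOC112571992 had only 207 and 413 reads over all 34 libraries. At Stage 4 the mean of LOC112571990, 0.254 CPM, was above its Stage 2 mean of 0.213 CPM, unlike those of the members. The means of the flanking genes did not run parallel, with Stage 3 at 404% of Stage 2 for LOC112572366 and 116% for LOC112571998. Both were little read, however. LOC112572366 had means of 0.484 CPM at Stage 2 and 1.96 CPM at Stage 3. LOC112571998 had 0.0529 and 0.0614 CPM, too few reads for its percentage to show a course.

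Differences between libraries of the same stage are a measure that the stage means leave out. After the stage mean of log2(CPM + 1) was subtracted, the 4 members of the run deviated together over the 34 libraries, with Pearson correlations from 0.89 to 0.96 in their 6 pairs, where the median over all 8515 pairs of members was 0.04. Between these 4 genes and the flanking genes the correlations ran from -0.10 to 0.07. The flanking gene LOC112571998 had only 453 reads over all libraries, which limits that comparison. Of the 13732 genes with 5 CPM or more at some stage, the 4 closest to LOC112571996 were LOC112571993, LOC112571997, LOC112571995 and LOC112571994, all of the run, with correlations from 0.92 to 0.96. The less read LOC112571991, LOC112571992 and LOC112571990 stood at 0.84, 0.65 and 0.60 with LOC112571996. These are descriptions across libraries that share depth and preparation. Neighbouring genes may be near-identical copies whose reads cannot be separated, and their levels are then uncertain. The treatment of reads with several matches is not given in the sources used here, and its part in the result was not tested.

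**Figure D4:**
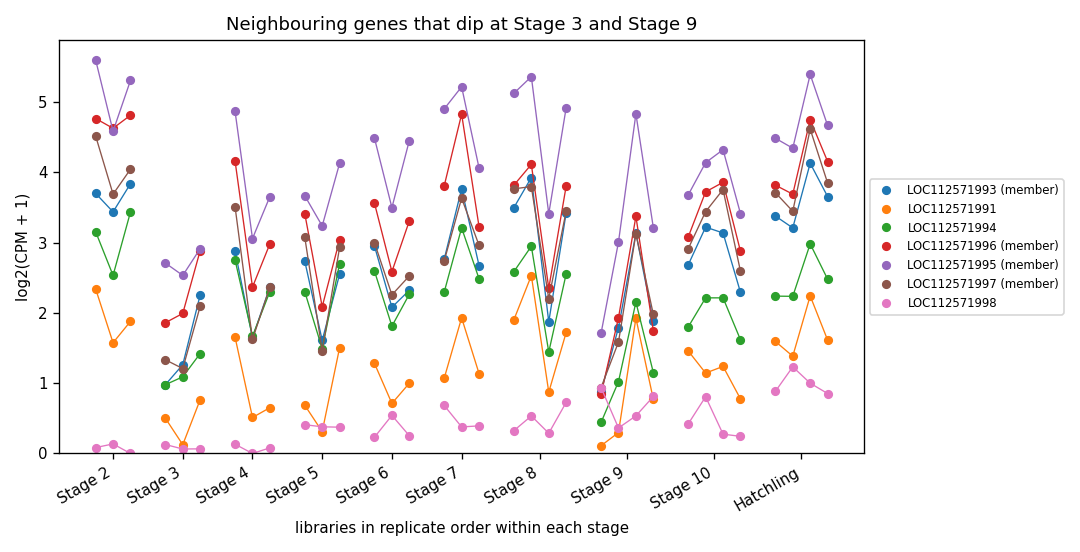
Levels of 6 genes of the run and of 1 flanking gene as log2(CPM + 1) in each library, in replicate order within each stage, with lines joining libraries of a stage only to guide the eye. The genes of the run are low at Stage 3 and in 3 of 4 Stage 9 libraries, and the same libraries are high or low in each of them, while LOC112571998 stays low throughout.

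A second run of neighbours, also chosen after its values were seen, had the gene with the deepest dip of Stage 8 at its edge. LOC112558587 had 1.01, 0.448, 1.11 and 1.1 CPM at Stage 8, against 12.2, 10.7 and 7.72 CPM at Stage 2 and 9.09, 8.64, 8.77 and 1.51 CPM in the hatchling. Every Stage 8 library was below both ends, but hatchling replicate 4 was nearly as low. In all, 11 of the 34 libraries were under 2 CPM, a limit chosen after seeing the values. They were all 4 of Stage 8, 2 of Stage 10 and 1 each of Stage 3, Stage 4, Stage 7, Stage 9 and the hatchling.

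Within a stage the libraries of this gene stood far apart. Its Stage 4 libraries had 13.8, 15.4 and 0.571 CPM, those of Stage 7 had 11.1, 0.657 and 9.92 CPM, and those of Stage 10 had 9.84, 0.679, 1.17 and 9.72 CPM. The lowest of each, 0.571, 0.657 and 0.679 CPM, lay within the range of the Stage 8 libraries. LOC112558970, the other member of this run, had its lowest mean at Stage 3, with 3.12 CPM or 37.7% of its lower end mean. Its Stage 8 mean of 4.2 CPM, against a lower end mean of 8.27 CPM, missed the limit on the dip. It was low in the same libraries of Stages 4, 7 and 10, with 7.94, 8.18 and 1.6 CPM at Stage 4. Its Stage 7 libraries held 25.1, 4.54 and 18.9 CPM, and its Stage 10 libraries held 20, 3.68, 3.85 and 23.1 CPM.

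The run held 9 genes, from LOC112558572 to LOC112558587. With stage means subtracted, 7 of the other 8 followed LOC112558587 over the 34 libraries, with Pearson correlations from 0.84 to 0.97. The exception was LOC112558574, at -0.15, and the flanking genes were at -0.02 and 0.08. These flanking genes had only 575 reads (LOC112558967) and 37 reads (LOC112558589) over all 34 libraries. Their values therefore say little about where the shared deviations end. The 4 closest of the 13732 genes were LOC112558970, LOC112558572, LOC112558968 and LOC112558591, all of the run, and the next, outside it, was at 0.77. At Stage 8 the means of the run's genes other than LOC112558574 were between 12.7% and 53.7% of their Stage 7 means, and that of LOC112558574 was 104%.

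**Figure D5:**
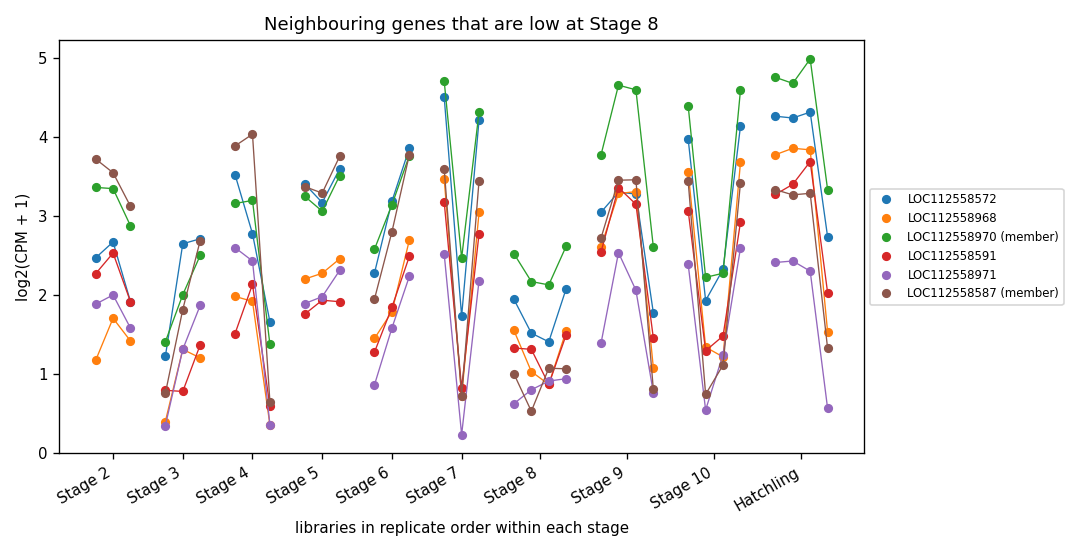
Levels of 6 genes of the second run as log2(CPM + 1) in each library, in replicate order within each stage, with lines joining libraries of a stage only to guide the eye. In the 4 Stage 8 libraries all 6 genes are below replicates 1 and 3 of Stage 7, and they also drop together in replicate 3 of Stage 4, replicate 2 of Stage 7, replicate 4 of Stage 9, replicates 2 and 3 of Stage 10 and replicate 4 of the hatchling.

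Among the members low for the longest time, LOC112566978 and LOC112569649, chosen after their values were seen, were at or under 50% of the lower end mean at 7 stages. LOC112566978 had 0.827, 1.25 and 1.62 CPM at Stage 7, against 4.85, 7.65 and 6.2 CPM at Stage 2 and 4.39, 6.82, 4.31 and 4.8 CPM in the hatchling. It was still at 1.42 ± 0.378 CPM at Stage 10 (n = 4), so its return fell between Stage 10 and the hatchling. It failed the rule with TMM or RLE scaling and without hatchling replicate 2. LOC112569649 had 1.14, 1.87, 1.33 and 0.791 CPM at Stage 8, against 6.35, 10.4 and 7.4 CPM at Stage 2 and 13.1, 14.1, 12 and 2.55 CPM in the hatchling. Its hatchling replicate 4 lay within the range of Stage 10, where the mean was 2.93 ± 0.913 CPM (n = 4). LOC112562303, low from Stage 5 to Stage 10, had means of 10.2 ± 0.559 CPM at Stage 7 (n = 3) and 15.7 ± 1.84 CPM at Stage 10 (n = 4), and regained its level only in the hatchling.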

How the data were processed

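Values are whole-number read counts, 1 column for each library, in a single table that the authors deposited without scaling. The submitters' processing notes name the aligner STAR. No source used here gives its version, the counting settings or the genome build. Sample titles gave stage and replicate. No 2 libraries agreed within sampling noise (chi-square per gene 10 to 188 over 42 pairs of a stage).

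CPM is the count divided by the column sum, times 1000000. Tests used edgeR 4.0.16 in R 4.3.3 on all 34 libraries (filterByExpr, minimum count 10; TMM; 1 coefficient per stage, no replicate block), with Benjamini-Hochberg adjustment over 17441 genes. The test and the rule were tried on simulated data. Alternatives were RLE scaling, library totals, no filter, DESeq2 1.42.0, a replicate block, medians, other limits and leaving out each library; leave-outs per gene were added after seeing the data. Named genes were per stage the deepest dip whose libraries did not overlap with either end, the 4 highest by lower end, 2 on each side of the limit and the 4 most like the median course, besides those said to be chosen later. The members and lists were chosen with earlier results of these data known. Python 3.11.15 and Matplotlib 3.10.9 drew the figures.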

Additional observations from a re-analysis of the deposited data

Results flagged for a closer look

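Libraries far from the others of their stage were looked for in the 31 genes named by rule or choice, at the 4 stages with 4 libraries. Of 124 groups 6 had such a library, where chance flags about 1 in 20. LOC112558587 had 0.448 CPM in Stage 8 replicate 2, below the 1.01 to 1.11 CPM of the others, and 1.51 CPM in hatchling replicate 4, below 8.64 to 9.09 CPM. LOC112565030 had 73.3 CPM in Stage 10 replicate 4, above 62.3 to 62.6 CPM. LOC112574283 had 32.9 CPM in the same library, above 30.4 to 30.9 CPM. Of the genes just outside the limit, LOC112556768 had 46.2 CPM in hatchling replicate 3, above 38.8 CPM in each of the others, and LOC112563039 had 6.17 CPM in Stage 10 replicate 3, above 4.41 to 4.67 CPM.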

How the results depend on the processing

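The number of members depended on scaling and on the limits of the rule. It was 131 with library totals, 178 with TMM and 234 with RLE scaling, of which 108 and 119 were among the 131, and 136 with stage medians. Lows at Stages 8 to 10 numbered 25, against 49 with TMM and 44 with RLE, and with RLE 112 genes had their low at Stages 3 to 5 and 78 at Stages 6 and 7. A minimum of 1 CPM gave 375 genes, 10 CPM gave 78, and a dip to 25% gave 25. Between hatchling and Stage 2, library totals gave 45 higher and 10 lower members in place of 28 and 38. The other counts stayed within 1.5 times, and the cause of these shifts was not tested. Leaving out 1 library gave 121 to 143 members. It left 93 to 102 called lower at Stage 6 than Stage 2, 90 to 95 higher in the hatchling than at Stage 6, 64 to 68 lower at Stage 3 than Stage 2, and 51 to 58 higher in the hatchling than at Stage 10. Between hatchling and Stage 2 it left 24 to 27 higher and 31 to 38 lower. Of 326 log2 ratios of lowest to lower end mean for 29 named members, 320 moved by less than the spread, a limit not defined further here. It allowed wide shifts, such as that of LOC112571996 from -2.14 to -3.09 without Stage 9 replicate 3. None rose above 0, but the rule made this nearly certain, so the sign says nothing about stability. Membership itself was less stable, as 56 members failed the rule in at least 1 leave-out.

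The replicate numbers gave no general pairing of the libraries. Same-numbered libraries of compared stages had correlations of deviations from -0.30 to 0.48, with 2 of 16 above 0.1. The value of 0.48 was that of replicate 1 at Stage 3 and Stage 2, and its cause was not tested. The other was 0.11, for replicate 2 at Stage 6 and Stage 2. With the replicate block 102, 95, 68 and 58 members were called in the comparisons listed above, in the same order. Between hatchling and Stage 2 it gave 27 higher and 36 lower. Levels of a few CPM at the low stage rest on few reads, down to 8, and limit how deep a dip can be shown to be.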

Other observations

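Outside the 2 runs of neighbours, some pairs of members also deviated together between libraries of the same stage. With stage means subtracted, LOC112559189 and LOC112570642 had a Pearson correlation of 0.77 over the 34 libraries, and LOC112563838 and LOC112575363, the most abundant members, one of 0.76. LOC112570642 stood far apart in replicate 1 of Stage 2 and of Stage 3, and its correlation without these libraries was not computed. The genes outside the runs that came closest to them were LOC112568787, at 0.82 with LOC112571996, and LOC112559374, at 0.77 with LOC112558587. These pairs were picked as the highest of many and are given as values only.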
